A study of Homo sapiens with 4 samples.

Results

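The break sites described here are those at which the closest guide-like sequence differed from the VEGFA site 2 single guide RNA (sgRNA) at exactly 6 of 20 bases. Break sites listed in the libraries of this sgRNA were merged where they lay within 30 nt of each other. On both strands of each listed sequence, the protospacer with the fewest mismatches beside an NGG protospacer-adjacent motif (PAM) was then sought, with its expected cut within 10 nt of the listed position. Of 606 merged loci, 109 (17.99%) had 6 mismatches, which is 27.6% of the 395 loci with at most 7. The 4 libraries available are all from wild-type U2OS, a human osteosarcoma cell line. In 2 of them, replicates 1 and 2, cells were cut by Streptococcus pyogenes Cas9 (SpCas9) with the VEGFA site 2 sgRNA. The other 2 are non-target libraries, which serve as the control and are labelled undigested, with no guide named. TTISS-seq maps breaks in living cells through a short double-stranded DNA tag that is joined into them during repair, and U2OS is a single tumour-derived line.

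SpCas9 binds DNA next to a PAM and opens the double helix from there, so that guide RNA and target strand pair first at the PAM-proximal end. Mismatches in that end, the seed, are known to disturb binding more than mismatches at the distal end. Off-target breaks can also occur where guide and DNA pair only with 1 base left unpaired. Such a base is called a DNA bulge when it is an extra base of the DNA, and an RNA bulge when it is a base of the guide. VEGFA site 2 is known as a guide with many off-target sites. Its sequence holds 14 C among 20 bases and only 2 each of A, G and T.

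The 10 loci of highest mean share of counts among those found in both VEGFA site 2 libraries are shown first, because these loci carry most counts of the group. Each is written 5′ to 3′ on the protospacer strand with its 3-nt PAM at the end, and capitals mark the bases that differ from the guide. Coordinates are those of the 20-nt protospacer in hg38.
CDC42SE1 intron 1, chr1:151059393-151059412, plus strand: CCTccccCAcaccccgcAtccgg
Near IQUB, chr7:123534654-123534673, minus strand: TCcTcccCccCAcccgcctctgg
UTP4 intron 1, chr16:69132805-69132824, minus strand: AGTAGccCccaccccgcctcggg
SDHB intron 1, chr1:17053379-17053398, plus strand: AacccccAccacccACcTCcggg
Nearest to STT3B, chr3:31417163-31417182, minus strand: CTTccccCAcaccccgccCcagg
MIGA1 intron 1, chr1:77779748-77779767, minus strand: TCTccAcCccaccccgccCctgg
REEP6 intron 1, chr19:1494315-1494334, plus strand: CCTGcccCccaccccgccCcagg
Near KAZALD1, chr10:101061744-101061763, plus strand: CTAccccCAcTccccgcctccgg
SPATA20 intron 1, chr17:50547401-50547420, plus strand: CCcTTccCccaccccAcctccgg
Near LTBP2, chr14:74632003-74632022, plus strand: CCTcAccCccaccccAcctctgg

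At 9 of these 10 loci most capitals stood on the left, in the PAM-distal part, and the letters from position 13 to the PAM were close to those of the guide. The SDHB site was the exception, with 4 of its 6 mismatches in the PAM-proximal part. The intergenic and outside-transcript sites are named after the closest start of a protein-coding gene, which lay 421 bp away for IQUB, 229 bp for KAZALD1, 19641 bp for LTBP2 and 115473 bp for STT3B.

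The deposited values are whole-number counts per listed position. Their sum was 2855164 and 3182992 with the sgRNA but only 29017 and 60660 in the control, which therefore resolved small shares less well. These sums are not sequencing depths, since the rule by which a position entered a list is not stated. The on-target site, examined as a check of the labels, held 52810 and 64011 counts with the sgRNA and 22 and 60 counts in non-target replicates 1 and 2. Its share of listed counts was 1.85% and 2.01% with the sgRNA against 0.0758% and 0.0989% without it, so the groups did not overlap.

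Loci with 6 mismatches were numerous but mostly weak. They made up 19.4% and 17.9% of the listed sites in VEGFA site 2 replicates 1 and 2, yet held 7.28% and 7.79% of the counts (mean 7.53% ± 0.362, SD, n = 2). In the non-target libraries the same loci held 0.128% and 0.229% of counts. The control values lay far below both sgRNA values. However, the 109 loci were taken from the sgRNA lists, and 98 of them were in neither control list. That choice favours a lower control share, so nothing is read from the contrast. An exact permutation test of 2 against 2 libraries also cannot give a p under 0.333. Loci with 5 mismatches held 22.6% and 21.8% of counts and loci with 7 held 3.02% and 3.16%. The median share of a single locus was 0.148% at 4 mismatches, 0.0229% at 5, 0.0146% at 6 and 0.0120% at 7.

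One locus stood well above the rest. The site in intron 1 of CDC42SE1, which encodes a small effector of the GTPase CDC42, held 65210 and 80002 counts in VEGFA site 2 replicates 1 and 2. Its share was 2.28% and 2.51% (mean 2.40% ± 0.162, SD, n = 2), above that of the on-target site in each replicate. It ranked 11 among the 606 loci, and the next locus with 6 mismatches ranked 45. It alone held 31.4% and 32.3% of all counts at loci with 6 mismatches, and the 10 highest together held 68.4% and 69.4%.

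The site near the start of IQUB had 16643 and 18245 counts, on average 0.578% ± 0.0069 (SD, n = 2) of a library. In UTP4, a gene of small ribosomal subunit assembly, 9272 and 13235 counts were listed, or 0.370% ± 0.0644. SDHB encodes the iron-sulfur subunit of succinate dehydrogenase, and its site held 10871 and 9473 counts, or 0.339% ± 0.0588. All 3 were listed well above the median locus in each replicate, and of the 3 the SDHB and IQUB sites had the larger share in replicate 1. The STT3B site held 8193 and 10959 counts (0.316% ± 0.0406). In MIGA1, which encodes a protein of the outer mitochondrial membrane that acts in mitochondrial fusion, 8749 and 9305 counts were listed (0.299% ± 0.00996). The REEP6 site, in a gene for an endoplasmic reticulum membrane protein, held 6595 and 10730 counts (0.284% ± 0.0750), the widest spread of the 10 relative to its mean. The last 3 of the 10, near KAZALD1, in SPATA20 and near LTBP2, had mean shares of 0.214%, 0.207% and 0.186%.

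Below these, shares were small. A mean share of at least 0.1% was held by 14 loci, a share from 0.01 to 0.1% by 52, and a share under 0.01% by 43. All 14 of the first range and 49 of the 52 in the second were listed in both replicates, against 4 of the 43 weakest. Since a locus missing from 1 list has its mean lowered by that 0, these counts describe the lists and do not show how sharing depends on cleavage.

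Replicate 1 listed 89 of the 109 loci and replicate 2 listed 87. Both listed 67, or 61.5% (Wilson 95% interval 52.1 to 70.1), while 22 were in replicate 1 only and 20 in replicate 2 only. The shared fraction was 82.7% (72.6 to 89.6) at 75 loci with 4 mismatches, 68.2% (59.8 to 75.5) at 132 loci with 5 and 60% (46.8 to 71.9) at 55 loci with 7. The interval at 6 mismatches thus overlapped those at 5 and 7 but not that at 4. These intervals cover counting error over loci only, and loci of 1 library are not replicates of each other.

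Shared loci were ranked alike in both replicates. Across the 67 loci, rho (Spearman) was 0.871 and r (Pearson, log10 of counts) was 0.924, given as a description over loci that share libraries. The share differed by less than 2-fold between replicates at 57 of them (85.1%). The median fold between replicates was 1.32 and the largest 3.32, with 39 loci higher in replicate 2 and 28 in replicate 1. The median count was 948.5 in a library for shared loci and 248 for loci of a single list.

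Some loci were missing from a list although the other replicate held many reads. There were 42 unshared loci. One of them, a site in a noncoding gene on chromosome 7, had 2240 counts in replicate 2 and was not listed in replicate 1. That count lies above the median of shared loci, so a low count in the listing library does not describe this site. Examples with lower counts, on chromosomes 9, 1 and 17, had 664, 535 and 521 counts in the library that listed them. Together, unshared loci held 4.17% and 2.97% of the counts at loci with 6 mismatches in replicates 1 and 2. The chromosome 7 site is shown as an example.
Noncoding gene, chr7:66558170-66558189, plus strand: CTGccccCccaccccAActcagg

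In the group 4 protospacers occurred at 2 loci each, so that 105 distinct protospacers stood behind the 109 loci. Only 3 of the 4 pairs are described. Every one of their 6 loci was listed in 1 replicate only, which does not hold for all repeated protospacers. One pair had a copy in intron 17 of JAK1 with 229 counts in replicate 1 and a copy on chromosome 17 with 521 counts in replicate 2. Another had copies on chromosomes 6 and 2 with 377 and 112 counts, both in replicate 1. The last had 317 counts on chromosome 15 in replicate 2 and 110 on chromosome 2 in replicate 1. The 3 protospacers of these pairs differed from each other at only 2 positions, the first and second from the 5′ end.

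Mismatches were concentrated at the PAM-distal end. Position 1 is the guide's 5′ base and position 20 adjoins the PAM, counting from the 5′ end, and a change is written with the guide's base first. On average the 109 loci had 2.57 more mismatches (SD 1.70) at positions 1 to 10 than at positions 11 to 20. All 17576 NGG-flanked protospacers of hg38 with 6 mismatches averaged a difference of 0.00068, so the genomic supply had no such tilt. More PAM-distal than PAM-proximal mismatches were found at 99 loci, equal numbers at 5 and more PAM-proximal ones at 5. The tilt was 2.02 at 5 mismatches and 2.56 at 7.

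The share of genomic sites that were listed followed the number of PAM-proximal mismatches. With none at positions 11 to 20, 5 of 30 genomic sites were listed (16.7%, Wilson 95% interval 7.34 to 33.6). With 1 it was 37 of 629 (5.88%, 4.30 to 8.003), and with 2 it was 57 of 4445 (1.28%, 0.991 to 1.66). With 3 it was 5 of 7783 (0.0642%, 0.0274 to 0.150). The listed share therefore fell across these 4 steps, with intervals that did not overlap from 1 mismatch on. With 4 or more it was 5 of 4683 (0.107%, 0.0456 to 0.250), which overlapped the interval at 3.

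By position, 3 places stood out. Position 2 was mismatched at 92.7% of loci, and positions 1 and 8 at 87.2% each. Among the genomic sites with 6 mismatches these values were 44.4%, 42.8% and 43.1%. For positions 2, 1 and 8 they were 74.2%, 79.5% and 70.5% at loci with 5 mismatches. At loci with 7 they were 90.9%, 92.7% and 94.5%, so this was not particular to loci with 6. All of positions 1, 2 and 8 were mismatched together at 78 loci (71.6%). Position 3 followed with 56.9%, against 32.8% in the genome.

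In the PAM-proximal part, only positions 16 and 19 were often mismatched, at 52.3% of loci each, and at least 1 of them at 86 loci (78.9%). Genomic sites were mismatched at these positions nearly as often, at 42.0% for 16 and 43.6% for 19. The Wilson interval of the loci, 43.0 to 61.4 at each position, included the genomic value for 19 and lay just above that for 16. The least often mismatched positions were 13, at 1.83% of loci, and 14 and 15, at 2.75% each. The genomic sites had mismatches there at 16.5%, 19.5% and 48.1%. Of these 3, position 15 differed most from the genomic value. At loci with 5 mismatches positions 13, 14 and 15 were mismatched at 2.27%, 1.52% and 9.09%, and at loci with 7 at 3.64%, 1.82% and 23.6%. Position 11 was mismatched at 23.9% of loci, against 46.3% of genomic sites. No mismatch at all stood at positions 11 to 15 of 75 loci (68.8%), against 15.1% of genomic sites.

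The bases that replaced the guide's were as uneven as the positions. T8C was found at 89 loci (81.7%), against 24.8% of genomic sites. G16A and T19C were found at 49 loci each (45.0%), against 16.2% and 24.1%. A2C was found at 56 loci and G1C at 45. Thus at position 8, where the guide interrupts a stretch of C with a T, most loci carried a further C.

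T8C, T19C and G16A share a property of pairing. Where the guide RNA has U and the protospacer C, the strand paired by the guide has G, and where the guide has G and the protospacer A, that strand has T. Both are wobble pairs, which are known to distort the helix less than other mismatches. The guide offers only 4 positions for them, namely 1, 8, 16 and 19. Of 209 mismatches at positions 8, 16 and 19, 187 (89.5%) were of the wobble type, against 50.5% at the genomic sites. At position 1 it was 30 of 95 (31.6%), against 23.02%. The excess was thus seen over positions 8, 16 and 19 and was smaller at position 1. Changes to C that are not of this type were also more frequent. A to C made up 11.2% of all mismatches, against 6.55% at genomic sites, and G to C 7.65%, against 6.27%. Whether T8C and T19C reflect wobble pairing or a gain of C was not tested. Pairing is read here from the ungapped sequence only. At 38 of the loci with T8C, an unpaired base at position 8 cannot be told apart from a wobble pair. No mismatch of this type was present at 2 loci, while 31 had 1, 48 had 2, 22 had 3 and 6 had 4. The median share did not follow that number, being 0.0146%, 0.0243%, 0.0112% and 0.0126% from 1 to 4.

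A few loci lay outside the main pattern, 5 with 3 PAM-proximal mismatches and 5 with more. The 5 with 4 or more had a median share of 0.00434%, against 0.0226% for loci with 1. The SDHB site was the one strong member among them. The other 4, named here after their values were seen, lay in introns of a noncoding gene, LANCL2, CUX1 and CELSR3, and 3 of them were listed in replicate 1 only. At each of the 5, a 1-nt gap gave a better alignment.

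A gap of 1 nt improved the alignment at most loci. Better means here that mismatches plus 1 for the gap came to fewer than 6. That held at 86 of 109 loci, which is 78.9% with a Wilson 95% interval from 70.3 to 85.5. Among genomic sites with 6 mismatches it held at 12.2%. Among sites with equal numbers of PAM-proximal mismatches the contrast was narrower up to 3 of them. It was 100% against 53.3% with 0, 81.1% against 32.0% with 1, 75.4% against 16.9% with 2 and 60% against 10.4% with 3. With 4 or more it was wider, at 100% of 5 loci against 7.84%. A gap tied with the ungapped alignment at 22 loci and was worse at 1. Loci with fewer mismatches have less to gain by construction, and the share with a better gap was 14.7% at 4 mismatches, 40.9% at 5 and 100% at 7.

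How much a gap counts decided the number. When the gap was counted as 2 mismatches, 29 loci (26.6%) remained better aligned with it, against 0.996% of genomic sites. The gap removed 2 mismatches at 57 loci, 3 at 23 and 4 at 6. At 79 of the 86 loci the better alignment used the same PAM and strand.

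An RNA bulge gave the best gapped alignment at 56 loci and a DNA bulge at 30, with ties in mismatches and cut distance given to the DNA bulge. At genomic sites with 6 mismatches and a better gap, an RNA bulge was best at 1519 and a DNA bulge at 626. The RNA bulge was thus the more frequent kind in both sets. With only 1 kind allowed, 66 loci were better with an RNA bulge and 35 with a DNA bulge, so some were better with either. The RNA bulge could be placed at position 8 at 38 loci, and at 31 of these no other placement was as good. Of the 95 loci mismatched at position 8, 75 were among those with a better gap. All 38 loci whose best gapped alignment could leave position 8 unpaired read as T8C without a gap. The lists give the sequence at the break but not the pairing, so T8C and an unpaired base at position 8 cannot be told apart at these 38. At 65 loci the gap fell within positions 1 to 10 only, and at 16 beyond position 10 only.

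Several loci where a gap removed most mismatches show what such an alignment looks like. The ungapped protospacer is followed by the gapped one, except where it was printed above. In the gapped line 19 bases stand before the PAM for an RNA bulge and 21 for a DNA bulge, and capitals mark mismatches and the extra DNA base.
Near CHRNB2 ungapped, 6 mismatches, chr1:154580177-154580196, minus strand: ACccccGCcATccccgcctcagg
Near CHRNB2 with a DNA bulge at position 11, 2 mismatches: AacccccGccaTccccgcctcagg
Near FGF19 ungapped, 6 mismatches, chr11:69704141-69704160, plus strand: ACccAcTCAcaccccgcctccgg
Near FGF19 with a DNA bulge at position 9, 2 mismatches: CacccActcAcaccccgcctccgg
ACAP3 ungapped, 6 mismatches, chr1:1307685-1307704, plus strand: TGAccTcCccaccccgccGccgg
ACAP3 with an RNA bulge at position 8, 2 mismatches: gaccTccccaccccgccGccgg
UTP4 with an RNA bulge at position 8, 3 mismatches: gTAGcccccaccccgcctcggg
SDHB with an RNA bulge at positions 12 to 16, 3 mismatches: AacccccAccacccAcctccgg

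In the ACAP3 and UTP4 alignments, leaving the T at position 8 unpaired restored the match of some of the bases to its left. At SDHB the gap lay in the PAM-proximal part, used the PAM shifted by 1 base and removed 3 mismatches. None of these loci but UTP4 and SDHB was strong. The CHRNB2 site, near the gene of a nicotinic receptor subunit, held 632 and 735 counts. The site near FGF19, a hormone of bile acid control, held 226 and 602. The ACAP3 site had 511 counts in replicate 2 only, and a noncoding gene on chromosome 6, where the gap also removed 4, had 248 in replicate 1 only. UTP4 and SDHB are also among the loci of highest mean share listed first, so these sites cannot show whether gain and count go together. Among the loci grouped by gain, the median share was 0.00574% where the gap removed 1 mismatch and 0.0252% where it removed 2. It was 0.0116% where the gap removed 3 and 0.0129% where it removed 4, so it did not follow the gain in a steady order.

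Across all 109, both replicates listed 58 of the 86 loci with a better gap (67.4%, Wilson 95% interval 57.0 to 76.4) and 9 of the other 23 (39.1%, 22.2 to 59.2). Their median share was 0.0222% against 0.00509%. The intervals overlap, and the loci share 2 libraries, so the difference was not tested. The mean number of PAM-proximal mismatches was 1.70 in the first set and 1.78 in the second. With the loci of a better gap left out, the tilt towards the PAM-distal part was 2.43.

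All forms of the NGG PAM were found. AGG adjoined 38 loci, CGG 25, GGG 24 and TGG 22. At 0 loci did a protospacer beside NAG or NGA have fewer mismatches, and at 4 it had as many. At 101 loci (92.7%) the break was listed no more than 1 nt from the expected cut, which lies 3 nt from the PAM. It was at the expected cut itself for 50.6% and 58.6% of the sites of replicates 1 and 2. Of the 67 shared loci, 26 were listed at the same position in both replicates and 32 at positions 1 nt apart.

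By GENCODE, 49 loci (45.0%) lay in introns of protein-coding genes, 30 were intergenic, 13 lay in noncoding genes and 13 within a gene but outside its canonical transcript. Another 3 lay in a 3′ UTR, 1 in a 5′ UTR and 0 in a coding exon. The median distance to the closest start of a protein-coding gene was 19371 bp, and 24 loci (22.02%) lay within 1000 bp of one. Expression of these genes was not measured here.

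The non-target libraries listed 11 of the 109 loci (10.1%, Wilson 95% interval 5.73 to 17.2), all of which both VEGFA site 2 libraries also listed. Of all 606 loci in the sgRNA lists, the control listed 122. The share was 38.7% at 4 mismatches, 22.7% at 5 and 7.27% at 7. Non-target replicate 2 listed all 11 and replicate 1 listed 3 of them. The CDC42SE1 site had 27 and 80 counts in non-target replicates 1 and 2, the IQUB site 5 and 16, and the STT3B site 5 and 10. Each of the remaining 8 had between 2 and 7 counts in replicate 2 only. These were SDHB, REEP6, KAZALD1, SPATA20, CTDNEP1, UCKL1, GATA6 and NRF1, the last 2 both genes of transcription factors. The loci seen in the control were thus among the strongest of the group, including 7 of the 10 highest, and none ranked below 29.

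Control counts were a small fraction of the sgRNA counts at the same locus. Summed over replicates, they were 0.0246% to 0.0893% of the VEGFA site 2 counts at these 11 loci, with a median of 0.0602%. The on-target site was listed in the control as well, as given above. The source of these control reads was not tested.

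The quasi-likelihood test of edgeR was run on the counts of all 689 loci of the 4 libraries, taking each library's listed total as its size and entering 0 for a locus missing from a list. Of the 109 loci with 6 mismatches, 35 (32.1%) were higher with VEGFA site 2 (Benjamini-Hochberg adjusted p below 0.05) and 0 were lower. Since members were taken from the VEGFA site 2 lists and 98 of them were entered as 0 in both control libraries, that choice fixed the direction. Of all 689 loci 26.6% were called higher, and of the 606 loci in the sgRNA lists 30.2%, so the share among loci with 6 mismatches was close to that of the lists as a whole. An unadjusted p under 0.05 was reached by 59 of the 109 and by 284 of all 689 loci. Both VEGFA site 2 libraries listed all 35 called loci, no control library listed 32 of them, and the lowest count of any in a VEGFA site 2 library was 584. By mean share, 10 of the 14 loci at 0.1% or more, 25 of the 52 from 0.01 to 0.1% and 0 of the 43 below were called. Calls in these ranges were not counted over all loci, so nothing particular to loci with 6 mismatches is read from them.

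Of the loci listed in the control, 3 were called. The CDC42SE1 site had a log2 fold change of 4.41 in edgeR's quasi-likelihood test (adjusted p = 0.0309), the IQUB site 4.72 and the STT3B site 4.23, both with the same adjusted p. The on-target site had 4.46 (adjusted p = 0.0309). The fold changes of the 11 control-listed loci lay between 4.23 and 6.28, with a median of 4.73. For loci absent from both control lists no fold is given, since their counts there may lie under an unstated listing limit.

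The calls depended on scaling and on single libraries. With TMM factors edgeR called 0 of the 109 and 0 of all 689 loci (17 and 114 at an unadjusted p under 0.05). The log2 fold changes of the 122 loci listed in both groups fell by 4.35 in the median, but the median over all 689 loci was 8.96 against 8.97, and 106 of the 109 stayed positive. It also called 0 without VEGFA site 2 replicate 1 (1 unadjusted) and 0 without replicate 2 (0 unadjusted), and 48 with either control library left out. Calls without a control library rose over all loci as well. Leaving out any library leaves 1 in its group, so nothing about loci with 6 mismatches is read from these counts. With a filter of at least 10 counts in at least 2 libraries the count was 63, and 296 of all 351 loci that passed were called higher. The 67 members it kept are those listed in both VEGFA site 2 libraries, so nothing is read from it. DESeq2 called 6. Signs depended on the scaling too, with 3 of the 109 negative under TMM and 47 under DESeq2, where the median log2 fold change of all 689 loci was -0.33 against 8.97 with listed totals. No member was called lower in either, but members were taken from the sgRNA lists, so nothing is read from that. Among the sites named here, STT3B, GATA6 and NRF1 were negative under both and CDC42SE1 under DESeq2.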

How the data were processed

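TTISS-seq libraries of U2OS cells were analysed as 2 groups of 2 (VEGFA site 2 and non-target), assigned from the sample labels. Per library, the authors deposited 1 list of break positions, giving for each its counts and 60 nt of surrounding sequence. The deposited counts were whole, summed differently between libraries and were used as raw counts. The submitters' processing notes name hg38. The aligner, removal of duplicates, use of molecular identifiers and the listing rule are not given in the sources used here. Intervals therefore cover counting error only, and reads amplified by PCR are not independent molecules. All but 1 of 1223 listed sequences stood at their listed hg38 position.

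Listed sites were merged within 30 nt. Protospacers beside NGG were sought on both strands, with the cut 3 nt from the PAM and within 10 nt of the listed position. The fewest mismatches, then the closest cut, gave the best match. The guide sequence is that of the study's list of guides, checked against the on-target site. Gapped alignments held exactly 1 gap inside the protospacer. The genome was scanned for every NGG-flanked protospacer with 5 to 7 mismatches. Genes are those of GENCODE 44 at the protospacer. Sites were named by a fixed rule: the 10 of highest mean share in both libraries, those also in a non-target library, the 8 that gain most from a gap, the 5 highest of a single library, those that share a protospacer, and any in a coding exon. Some sites and sequences that this rule names are not reported here.

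Counts were tested with edgeR 4.0.16 under R 4.3.3 with limma 3.58.1 (two-sided glmQLFTest after glmQLFit) over 689 loci, with Benjamini-Hochberg adjustment and a threshold of 0.05. Alternatives were TMM factors, DESeq2 1.42.0, a filter of at least 10 counts in at least 2 libraries, a replicate block, leaving out each library, and other merging, window and gap settings. Nothing says that replicates came from separate cultures, so p-values measure only the spread between these samples. The members, lists and tests were chosen with earlier results of these data known. The other steps used numba 0.67.0, pysam 0.24.0, pandas 2.3.3, scipy 1.17.1 and numpy 2.4.6 in Python 3.11.15, and the procedures were tested on simulated data.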

Additional observations from a re-analysis of the deposited data

How the results depend on the processing

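The number of loci with 6 mismatches stayed between 87 and 109. Neither the share listed in both replicates nor the share of counts moved beyond its error under any other merging distance or window. The minimum of 10 counts could not test this, since the lowest count of a member in a VEGFA site 2 library was 98. The mean difference between PAM-distal and PAM-proximal mismatches was 2.52 and 2.74 without replicate 2 and replicate 1 of VEGFA site 2. The number of loci with a better gapped alignment was 29 when a gap counted as 2, 35 with DNA bulges only and 66 with RNA bulges only.

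The number called higher with VEGFA site 2, 35 as reported from edgeR, was 63 of the 67 that passed the low-count filter, which are the loci in both VEGFA site 2 lists, 0 with TMM factors, 6 with DESeq2 (57 of the 109 had no adjusted p) and between 0 and 48 without single libraries. With the replicate block it was 0 (4 at an unadjusted p under 0.05, against 122 of all 689 loci). The labels only share replicate numbers. Deviations of same-numbered libraries correlated at 0.13 over 63 loci, and 2 pairs cannot show a pairing. The on-target log2 fold change was 0.12 with TMM factors, 0.025 with DESeq2, 4.48 with the replicate block and between 4.29 and 4.67 without single libraries. It lost its call with TMM factors, DESeq2, the block and without either VEGFA site 2 library. Log2 fold changes were negative at 47 of the 109 loci with DESeq2 and at 3 with TMM factors. Among the named sites signs turned at CDC42SE1 (-0.019 with DESeq2), STT3B (-0.12 with TMM factors, -0.17 with DESeq2), GATA6 (-0.022 and -0.24) and NRF1 (-0.13 and -0.34), and the cause was not tested.

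The control lists summed to only 29017 and 60660 counts, and their sequencing depth is unknown. Absence from a list was not read as absence of breaks.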
